A study of Mus musculus with 5 samples.

Results

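Interferon-stimulated genes, the genes that cells switch on when an interferon reaches them, were followed through 5 liver libraries from mice with a hepatocyte deletion of the splicing factor Srsf2. The group comprised 36 gene records out of 46095 records in the deposited table. Its members were chosen by symbol as well-known genes of this response, with earlier results of these data known. They were grouped by role into nucleic acid sensors (5 genes), transcription factors (4), the Ifit family (3), the Oas and Oasl family (5), a ubiquitin-like modifier with its protease (2), other antiviral effectors (11) and interferon-inducible GTPases (6).

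Liver RNA of C57BL/6 mice was sequenced as 1 library for each of 5 conditions. At 2 months (2M), an Srsf2f/f control, labelled wild type, and a hepatocyte knockout (HKO), in which Alb-Cre deletes Srsf2 in hepatocytes, were compared. At 12 months (12M), an Srsf2f/f control was compared with the non-tumor section and the tumor of a mutant liver. The sample codes of both sections carry the same animal number, 24, and the tumor's label gives no genotype of its own. The codes of the 12M samples start with M13 while their titles give 12 months. Alb-Cre acts in hepatocytes and leaves most other liver cells with an intact gene, and Srsf2 itself was listed at 14.6, 22.7, 15.7, 17.6 and 15.6 FPKM (a fragment count divided by the length of the gene and the size of the library) in the 2M Srsf2f/f, 2M HKO, 12M Srsf2f/f, non-tumor and tumor libraries, an order kept below. The deletion was thus not visible as a lower whole-liver Srsf2 level, and the reason was not tested. The paper reports that the protein was lacking in young HKO livers and was detected again at the ages sequenced here. It also reports that splicing changes seen in young HKO livers had returned to wild-type patterns by these ages. Each library held 34969834 to 36104176 fragments, worked back from the FPKM. Hepatocyte markers dominated every library, at a summed 46121 to 58206 FPKM over 9 genes.

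Interferons of type I (Ifna genes and Ifnb1) and type III bind receptors on the cell surface and activate the kinases Jak1 and Tyk2. These phosphorylate Stat2, which acts with Irf9 in the complex ISGF3 at the interferon-stimulated response element (ISRE). Type II interferon, Ifng, acts through Jak1 and Jak2, and its targets often carry a gamma-activated site (GAS). The induced genes detect viral nucleic acid, degrade RNA, block translation or trap virus particles, and in the liver both hepatocytes and Kupffer cells, the resident macrophages, can respond.

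The letters of the ISRE core, GAAA, 2 bases of any kind and GAAA on either strand, were searched in the 300 bases around each gene start (250 before and 50 after) in RefSeq GRCm38.p6. A window was given for 27 of the 36 members, and 17 of these (63%) held the ISRE core, against 3.99% of 27025 genes. The GAS letters TTCNNNGAA were held by 8 of 27 members (29.6%), against 9.55% of genes, and the motifs overlap in Bst2. Of the members called higher below, Ifih1, Ddx58, Isg15, Oas1a, Trim30a, Ifit3 and Eif2ak2 held the core. Oasl1 and Xaf1 had a window without it, and Usp18, Zbp1, Dhx58, Rtp4 and Parp14 had no window. The following upstream stretches show these letters in some members, called or not, all written 5′ to 3′ along the gene's strand. Capitals mark the ISRE cores, or in Irf1 the GAS, and the GAS letters of Bst2 that run into its first core are left in lower case where they do not overlap it.
Isg15, chr4:156200855-156200916, minus strand, 3 overlapping ISRE cores: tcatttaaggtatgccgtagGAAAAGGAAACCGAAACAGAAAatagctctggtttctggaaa
Oas1a, chr5:120907526-120907565, minus strand, 2 overlapping ISRE cores: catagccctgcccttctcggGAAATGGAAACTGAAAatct
Trim30a, chr7:104465200-104465249, minus strand, 1 ISRE core on the opposite strand: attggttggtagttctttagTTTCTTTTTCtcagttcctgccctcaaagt
Rsad2, chr12:26456543-26456592, minus strand, 1 ISRE core on the opposite strand: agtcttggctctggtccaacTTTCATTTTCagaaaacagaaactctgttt
Gbp2, chr3:142620584-142620633, plus strand, 1 ISRE core on the opposite strand: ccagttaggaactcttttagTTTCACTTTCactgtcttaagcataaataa
Bst2, chr8:71537567-71537622, minus strand, 2 overlapping ISRE cores: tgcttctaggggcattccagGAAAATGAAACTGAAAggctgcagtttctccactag
Irf1, chr11:53769904-53769952, plus strand, 1 GAS: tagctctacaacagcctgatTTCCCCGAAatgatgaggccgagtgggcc

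Most members stood higher in the mutant libraries than in either control. All 3 mutant libraries lay above both Srsf2f/f livers for 26 of 36 members (72.2%), against 41.3% of 12763 genes with over 1 FPKM in any library. The exceptions were Stat2, Irf9, Irf1, Oas2, Bst2, Ifi35, Gbp3, Gbp7, Igtp and Iigp1. The tumor held the highest value for 18 members and the 2M HKO liver for 13, while the 12M Srsf2f/f liver held the lowest for 23. The order 12M Srsf2f/f below non-tumor below tumor was kept by 28 members (77.8%), against 49.5% of 12225 genes. The median level of the 36 members was 2.78 FPKM in 2M Srsf2f/f, 5.26 in 2M HKO, 1.91 in 12M Srsf2f/f, 4.13 in non-tumor liver and 7.37 in tumor. In bulk tissue, fewer cells of a type and less RNA per cell cannot be told apart.

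**Figure D1:**
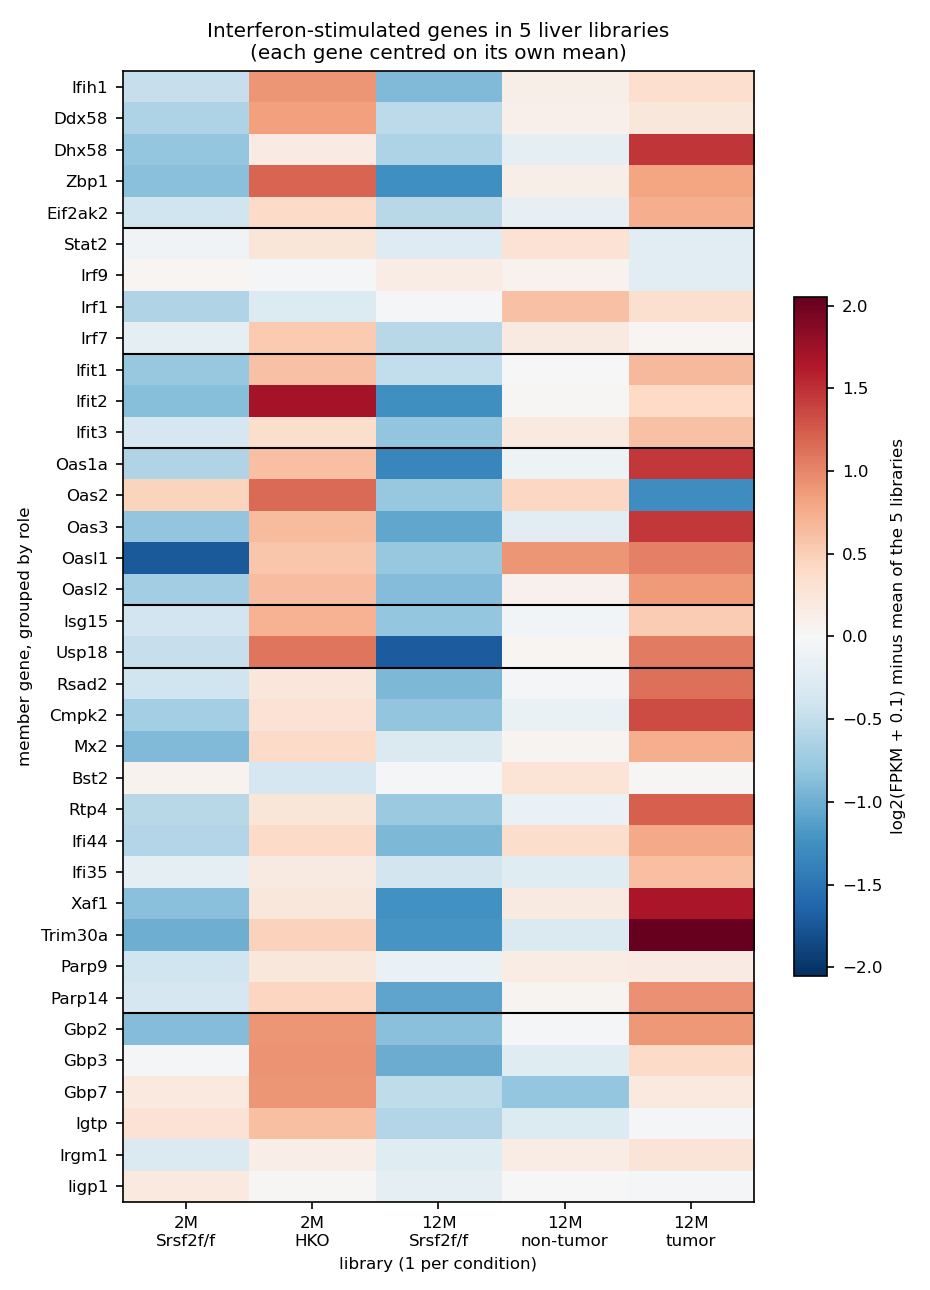
Color shows log2(FPKM + 0.1) of each member in each of the 5 libraries, minus the gene's mean over the libraries, with members grouped by role between black lines. The 2 Srsf2f/f columns are mostly blue, the tumor is the reddest for Trim30a at 10.1 FPKM, and Bst2 and Iigp1 are nearly white across the row.

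Ratios were taken as log2 of FPKM with 0.1 added. The call rested on size alone: a log2 ratio above 1 (higher) or below -1 (lower), about 2-fold, in members with more than 5 FPKM in either library of a pair. Members between 1 and 5 FPKM were counted by the same ratio and are given apart. With 1 library per condition no p-value could be computed, and the 95% intervals of ratios cover counting error of fragments only, not the spread between mice.

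At 2M, the question was how the livers of surviving HKO mice differ from control liver. Of 18 members over 5 FPKM, 6 were higher in HKO and 0 were lower. Isg15 alone of these 6 also exceeded 5 FPKM in the control, and the others passed the minimum only through HKO. The shares of all genes were taken with the same minimum. Among all 7220 genes over 5 FPKM, 19.2% were higher and 6.98% lower, and no test of the excess among members was made. With over 1 FPKM, 14 of 33 members were higher and 0 lower, against 25.8% and 6.3% of genes. The median log2 ratio of these 33 was 0.95, against 0.35 for all genes.

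Of the 5 sensors of foreign nucleic acid, 3 were among these 6 members. Zbp1, a sensor of left-handed nucleic acid that can trigger cell death, was listed at 3.28, 13.8, 2.46, 6.54 and 10.6 FPKM. Both controls were low and the 2M HKO liver was highest, at 4.22 times its control (3.65 to 4.89). Ddx58, which encodes the RNA sensor RIG-I, stood at 3.74, 10.5, 4.0, 6.32 and 6.89 FPKM, with a ratio of 2.82 (2.58 to 3.09) at 2M. Ifih1, which encodes the long double-stranded RNA sensor MDA5, was likewise highest in the 2M HKO liver, at 3.22, 8.45, 2.35, 4.91 and 5.76 FPKM. Its record overlaps Gm39839, as those of Dhx58, Eif2ak2, Isg15, Ifit1, Parp9, Gbp2 and Gbp3 overlap other records, and whether the counting used strand is not given in the sources used here. Dhx58, the third RIG-I-like receptor, lay just under the threshold at 2M, at 2.92 and 5.81 FPKM and a log2 ratio of 0.97. Eif2ak2, the kinase PKR that halts translation on double-stranded RNA, stayed under 5 FPKM at 2M, at 2.39 and 4.27.

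Oasl1, a 2′-5′ oligoadenylate synthetase-like protein known in mice to restrain Irf7 translation, had the highest ratio of the called members at 2M. It was listed at 2.70, 13.6, 5.34, 17.3 and 18.8 FPKM, and its ratio was 5.04 (4.35 to 5.86). The 12M control was itself 1.98 times the 2M control (1.67 to 2.34), the highest age ratio of any member over 5 FPKM. Usp18, the protease that removes Isg15 from proteins and damps type I receptor signalling, stood at 3.67, 11.1, 1.51, 5.28 and 10.8 FPKM. The 3 mutant libraries lay above both controls, and the 2M ratio was 3.02 (2.60 to 3.52). Isg15, the ubiquitin-like modifier whose upstream stretch carries 3 overlapping cores, was listed at 8.51, 18.6, 6.47, 10.8 and 16.2 FPKM. Its 2M ratio was 2.18 (1.86 to 2.57), a call that did not survive rescaling to the median expressed gene. The other 5 calls remained, against 14.6% of genes higher after rescaling.

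Among members between 1 and 5 FPKM, 8 of 15 passed the same ratio at 2M, namely Ifit1, Ifit2, Oas1a, Oasl2, Mx2, Xaf1, Trim30a and Gbp2. Ifit2, which binds viral RNA and hampers translation, had the highest log2 ratio of any member at 2M, 2.57, at 0.540 and 3.70 FPKM. Gbp2, a guanylate-binding GTPase that attacks vacuoles of microbes, stood at 1.32 and 4.82 FPKM, a ratio of 3.66 (2.97 to 4.54). Bst2, the tether that holds budding virus particles at the cell surface, and Iigp1, an immunity-related GTPase, were the only members over 5 FPKM besides Irf9 with a negative log2 ratio, at -0.41 and -0.17.

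The 2M HKO liver also held more message of several other cell types, counted here from over 1 FPKM, where 25.8% of all genes were higher. Of 16 macrophage and Kupffer cell markers, 14 were higher and none lower, and their summed level was 457, 2460, 384, 711 and 679 FPKM in the 5 libraries. All 6 measured neutrophil markers were higher, with sums of 1.51, 137, 3.57, 15.1 and 7.27 FPKM. The sums for all leukocytes were 35.4, 113, 35.8, 57.5 and 40.6 FPKM, of which Lcp1 held 30.2, 55.1, 29.1, 40.7 and 25.3. T and NK cell markers stayed low, with 3 of 12 over 1 FPKM in any library, as did B cell markers (2 of 5) and dendritic cell markers (3 of 8). At 2M, 6 of 6 markers of dividing cells, 6 of 8 of stellate cells and fibroblasts and 5 of 5 measured biliary and progenitor markers were higher. Their sums in the 2M Srsf2f/f and HKO livers were 1.02 and 52.8, 84.5 and 282, and 20.1 and 393 FPKM. Of the last 2 sums Spp1 alone held 18.5 and 382 FPKM. The part of these cells in the members' 2M ratios was not tested.

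**Figure D2:**
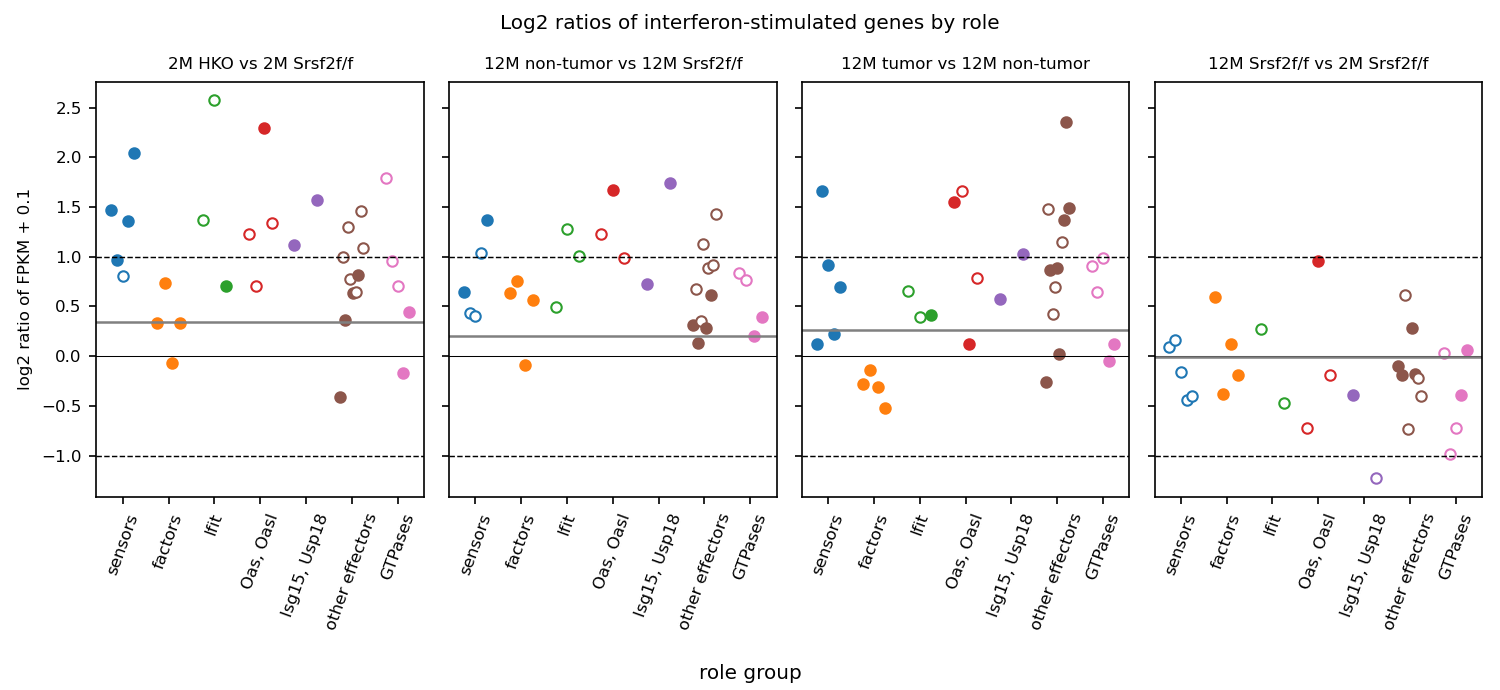
Log2 ratios of FPKM + 0.1 are plotted for the members over 1 FPKM in each of 4 comparisons, by role group. Filled points had over 5 FPKM, dashed lines mark log2 ratios of 1 and -1, and the gray line is the median of all genes over 1 FPKM (0.35, 0.20, 0.26 and -0.01 from left to right). Transcription factors lie under the upper dashed line in every panel.

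At 12M, the non-tumor section was set against the Srsf2f/f liver of the same age. Usp18, Oasl1 and Zbp1 were higher among 15 members over 5 FPKM and 0 were lower, where 6.14% of all genes were higher and 1.73% lower. The same 3 members were also among the 6 called at 2M. The share of all genes called higher in both comparisons was not computed, so the overlap is only described. Usp18 had the highest ratio, 3.49 (2.77 to 4.44), from 94 and 330 fragments. Oasl1 stood at 3.23 (2.90 to 3.61) and Zbp1 at 2.66 (2.22 to 3.18). Usp18 and Zbp1 passed the minimum of 5 FPKM only through the non-tumor section. After rescaling the same 3 members were called, against 4.61% of genes. With over 1 FPKM, 9 of 31 members were higher and 0 lower, against 10.6% and 2.39% of genes, and these added Xaf1, Ifit2, Oas1a, Parp14, Ifih1 and Ifit3. The median log2 ratio was 0.73 against 0.20 for all genes.

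In the tumor against the non-tumor section, the share of members called higher lay closer to that of all genes than in the preceding comparisons. Trim30a, Dhx58, Oas1a, Xaf1, Rtp4 and Usp18 were higher among 23 members over 5 FPKM and 0 were lower, while 17.7% of 7618 genes were higher and 8.43% lower. Usp18 was the call lost after rescaling, which left 5 of 22 members and 14% of genes higher. Trim30a, Oas1a and Xaf1 exceeded 5 FPKM in the tumor alone and could not be called in the comparisons without it. Dhx58 exceeded 5 FPKM in the tumor but not in the non-tumor section. Counted from over 1 FPKM, Oas1a and Xaf1 had also passed the ratio at 2M and in the non-tumor section, and Trim30a at 2M. With over 1 FPKM, 9 of 34 members were higher and 0 lower, against 20.2% and 8.72% of genes, with Oas3, Cmpk2 and Rsad2 added. The median log2 ratio of these 34 was 0.68, against 0.26 for all genes, and over the 23 members above 5 FPKM it was 0.42 against 0.23.

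Trim30a, a tripartite-motif protein that tempers Toll-like receptor signalling in mice, had the highest ratio. It lies on chromosome 7 from 104409025 to 104465193 and was listed at 1.14, 3.31, 0.960, 1.90 and 10.1 FPKM. The tumor stood apart from the other 4 libraries, with 1406 fragments against 258 in the non-tumor section, a ratio of 5.33 (4.66 to 6.11). Trim30d and Trim34a, from the list of further interferon-stimulated genes, had log2 ratios of 1.94 and 2.13 in the same comparison, and fragments may have been divided among such related genes. The median log2 ratio of the genes on chromosome 7 was 0.41, against 0.14 for all genes, both taken over genes with a mean above 5 FPKM.

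Dhx58 was listed at 2.92, 5.81, 3.28, 4.46 and 14.3 FPKM. Only the tumor reached a high level, at 3.20 times the non-tumor section (2.85 to 3.60), whereas Ifih1 and Ddx58, its relatives, had ratios of 1.17 (1.07 to 1.28) and 1.09 (1.0 to 1.18). At 2M the order of these 3 relatives was the opposite, with 2.82 for Ddx58, 2.62 for Ifih1 and 1.99 for Dhx58. Xaf1, an interferon-induced protein that promotes cell death, stood at 1.24, 2.75, 0.920, 2.65 and 7.63 FPKM, and Rtp4, which in mice restrains interferon responses, at 5.95, 10.6, 5.24, 8.06 and 20.9. In both, the tumor was highest and the 12M control lowest.

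The Oas genes make the 2′-5′ oligoadenylates that switch on RNase L, and 3 of them lie in a cluster on chromosome 5. Oas1a was listed at 1.83, 4.43, 1.07, 2.64 and 7.95 FPKM, and Oas3 at 0.279, 0.945, 0.217, 0.474 and 1.72. Both were highest in the tumor, at 3.01 times (2.54 to 3.59) and 3.63 times (2.82 to 4.71) the non-tumor section. Oas2, whose record ends 3223 bases from that of Oas3, was listed at 0.739, 1.27, 0.257, 0.725 and 0.153 FPKM. It was lowest in the tumor, with 22 fragments against 102, a ratio of 0.211 (0.127 to 0.337). Oas2 stayed under 1 FPKM in both sections and so entered no count of this comparison that sets a minimum. Its ratio was the lowest of any member in this comparison.

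Among other neighbouring members, 1 pair passed the ratio together. Rsad2, which encodes the antiviral enzyme viperin, and Cmpk2, a nucleotide kinase of mitochondria, lie 12759 bases apart on chromosome 12. Rsad2 stood at 0.944, 1.53, 0.632, 1.26 and 2.91 FPKM and Cmpk2 at 0.843, 1.78, 0.776, 1.30 and 3.79. Both were highest in the tumor, at 2.32 (1.93 to 2.79) and 2.92 (2.42 to 3.55) times the non-tumor section. The Ifit genes, clustered on chromosome 19, had ratios from 1.34 to 1.61, and none passed the threshold, nor did Gbp2, Gbp3 and Gbp7 on chromosome 3. Log2 ratios were 0.79 for Oasl2 and 0.12 for its neighbour Oasl1, and 0.89 for Parp14 and 0.02 for its neighbour Parp9.

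**Figure D3:**
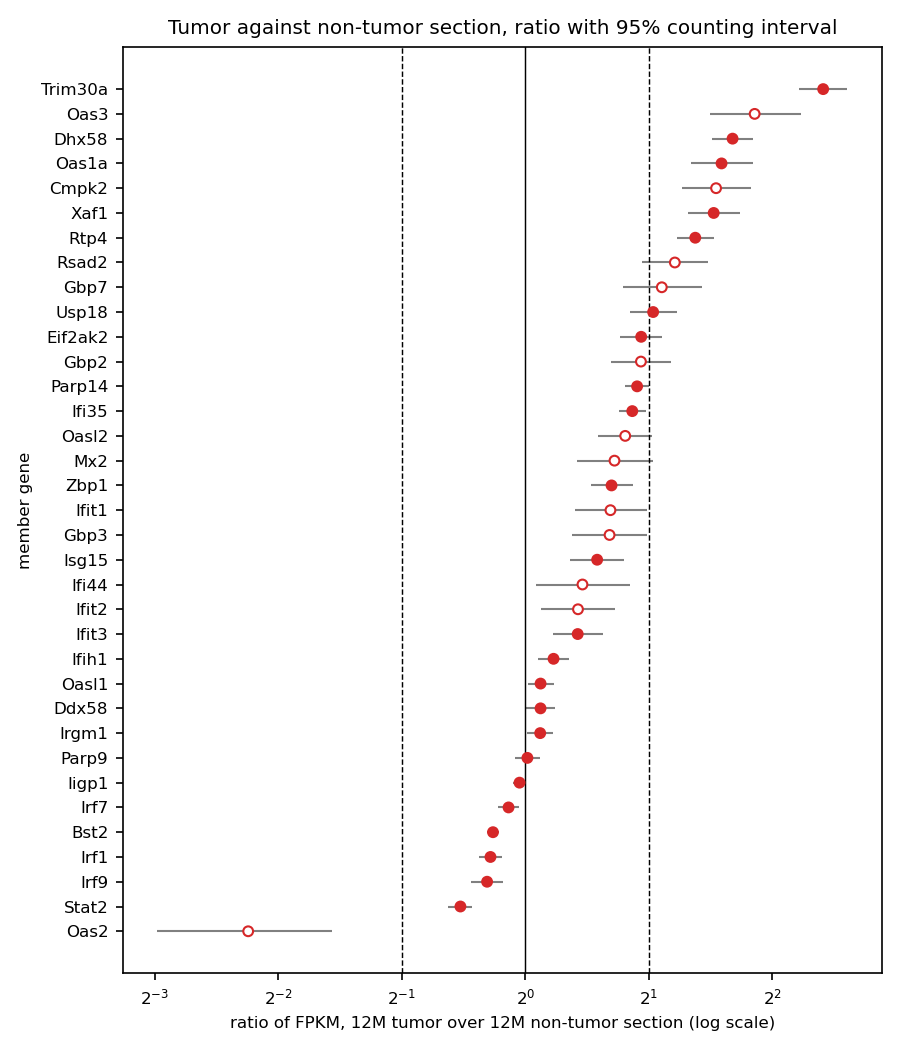
Ratio of FPKM in the 12M tumor over the 12M non-tumor section on a log scale, with 95% intervals from fragment counts, for members over 1 FPKM and Oas2. Filled points had over 5 FPKM and dashed lines mark 2-fold. Trim30a is at the top with 5.33, the 4 transcription factors lie left of 1, and Oas2 is at the bottom with 0.211.

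The transcription factors of the response were not called in any of the 5 comparisons, although all 4 had over 5 FPKM in every library. Irf7, the factor that amplifies type I interferon production, was highest in the 2M HKO liver, at 28.4, 47.4, 21.8, 36.9 and 33.6 FPKM. Irf1, a factor of the type II response with a GAS upstream, was higher at 12M, at 11.6, 14.7, 17.5, 27.3 and 22.4 FPKM. Stat2 (10.2, 12.9, 8.94, 13.3 and 9.25 FPKM) and Irf9 (11.4, 10.8, 12.4, 11.7 and 9.40 FPKM) both belong to ISGF3. In the tumor all 4 were below the non-tumor section, from a log2 ratio of -0.52 for Stat2 to -0.13 for Irf7, and every one of these intervals lay below a ratio of 1.

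Bst2 and Iigp1, the members with the highest levels, lay within a narrow range. Bst2 was listed at 210, 157, 196, 244 and 203 FPKM, and Iigp1 at 57.5, 51.2, 43.9, 50.7 and 49.1. Their log2 ratios lay between -0.41 and 0.31 in all 5 comparisons, and 2 overlapping ISRE cores stand upstream of Bst2. Members with the ISRE core had a median log2 ratio of 0.95 at 2M (15 members over 1 FPKM) and those without it 1.0 (9 members). In the non-tumor section against its control both medians were 0.75 (14 and 9 members). The medians with and without the core were 0.65 (16) and 0.41 (10) in the tumor against the non-tumor section. Against the 12M Srsf2f/f liver the tumor gave 1.31 (16) and 1.69 (10). No match means only that these letters are not in the window. Irgm1, a GTPase of the same family as Iigp1, stood at 12.8, 17.4, 13.3, 17.5 and 19.0 FPKM, and the record of Igtp, placed on the scaffold NT_187029.1, held 1 to 12 fragments per library and was too shallow to compare.

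Set directly against the 12M Srsf2f/f liver, 13 of 23 members were higher in the tumor and 0 lower, against 27.4% and 9.49% of genes. Of these 13, only Rtp4, Oasl1 and Isg15 also exceeded 5 FPKM in the control. With over 1 FPKM, 23 of 34 were higher and 0 lower, against 31.4% and 9.12% of genes, and the median log2 ratio was 1.42 against 0.50. The highest ratios were 10.5 for Trim30a (8.79 to 12.7), 8.30 for Xaf1 (6.61 to 10.5) and 7.43 for Oas1a (5.79 to 9.66). This comparison shares its libraries with both of the preceding ones. After rescaling, 10 members were higher, against 18.5% of genes. Between the control livers, 0 of 12 members were higher or lower at 12M, where 2.39% of genes were higher and 2.09% lower. With over 1 FPKM, Usp18 alone of 29 members was lower, at -1.23, and 0 were higher, against 2.78% of genes lower and 3.56% higher. Gbp3, Parp14, Oas1a and Gbp7 followed at -0.99, -0.74, -0.72 and -0.72.

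Values of whole chromosomes and of cell markers also differed between these libraries, and their part in the members' ratios was not tested. The 4 members on chromosome 16, Rtp4, Parp14, Mx2 and Parp9, had log2 ratios of 1.37, 0.89, 0.69 and 0.02 in the tumor against the non-tumor section, and the median of the 209 genes on that chromosome was 0.80. Eif2ak2, on chromosome 17 where the median was 0.59, had a log2 ratio of 0.92. Medians were 0.21 on chromosome 11, which holds Dhx58 and Xaf1, and 0.17 on chromosome 5, which holds Oas1a. On chromosome 6, which holds Usp18, the median was 0.15, against 0.14 for all genes. Each median covers genes with a mean above 5 FPKM. Cell markers in the same comparison were counted from over 1 FPKM, where 20.2% of all genes were higher and 8.72% lower. Of 14 measured macrophage and Kupffer cell markers, 1 was higher and 6 were lower. Of the 16, 6 were under 0.5 FPKM in the tumor, namely Clec4f, Vsig4, Timd4, Marco, Cd5l and Cd163. Positive log2 ratios were held by 4 of the 14, at 1.02 for Mpeg1, 0.93 for Trem2, 0.78 for Cd68 and 0.54 for Lyz2. Clec4f, which defines mouse Kupffer cells, had 1 fragment in the tumor and 2758 in the non-tumor section. Of 5 markers shared by leukocytes, 0 were higher and 1, Laptm5, was lower. Their sum was 40.6 FPKM in the tumor and 57.5 in the non-tumor section, of which Lcp1 held 25.3 and 40.7. Endothelial markers were divided, with 4 of 8 higher and 3 lower, and their sum was 198 FPKM against 53.1. Pecam1 and Cdh5, junction proteins of endothelial cells, had log2 ratios of 3.45 and 3.24, and 82.0 and 90.1 FPKM in the tumor. Clec4g and Stab2, of the same list, had log2 ratios of -5.83 and -3.52. Among markers of stellate cells and fibroblasts, 4 of 8 were higher and 3 lower. Their sums were 159 FPKM in the tumor and 180 in the non-tumor section. Of these sums Dcn, 1 of the 3 lower, held 59.2 and 127 FPKM, while Col1a1 and Col1a2 were among the 4 higher.

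The interferon genes themselves were all but undetected. Of 21 interferon genes of types I, II and III, 19 were listed at 0 in all 5 libraries, and Ifna5 and Ifnz together held 4 fragments. A limit of 3 fragments allows between 0.0568 and 0.151 FPKM, depending on the gene, and the handling of fragments that align to several of the near-identical Ifna genes is not given in the sources used here. Their absence from RNA of the whole liver does not show that no interferon protein was present.

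Of the interferon receptor subunits, 5 were measured. At 2M, 3 of 5 were higher, against 25.8% of genes, with Ifngr1, the ligand-binding subunit for type II interferon, at 8.20, 37.7, 8.39, 19.1 and 32.1 FPKM. In the non-tumor section 1 of 5, Ifngr1, was higher, against 10.6% of genes. After rescaling, 0 of 5 over 5 FPKM were, against 4.61% of genes. In the tumor against the non-tumor section, 4 of 5 were higher, against 20.2% of genes. After rescaling, 3 of 5 over 5 FPKM were, against 14% of genes. The 4 were Ifnar1 and Ifnar2 for type I, Ifngr2 for type II and Il10rb for type III. Il10rb is a subunit shared with the interleukin 10 receptor. Ifngr2 was listed at 9.41, 26.4, 10.2, 16.3 and 66.8 FPKM and Il10rb at 4.65, 21, 4.87, 9.60 and 48.7. These 4 lie together on chromosome 16, within 191225 bases from 91372783 to 91564007, and their log2 ratios, 1.14 for Ifnar2, 1.33 for Ifnar1, 2.03 for Ifngr2 and 2.33 for Il10rb, stood above the chromosome's median of 0.80. Ifngr1, on chromosome 10, had a log2 ratio of 0.74 in that comparison and was not called.

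**Figure D4:**
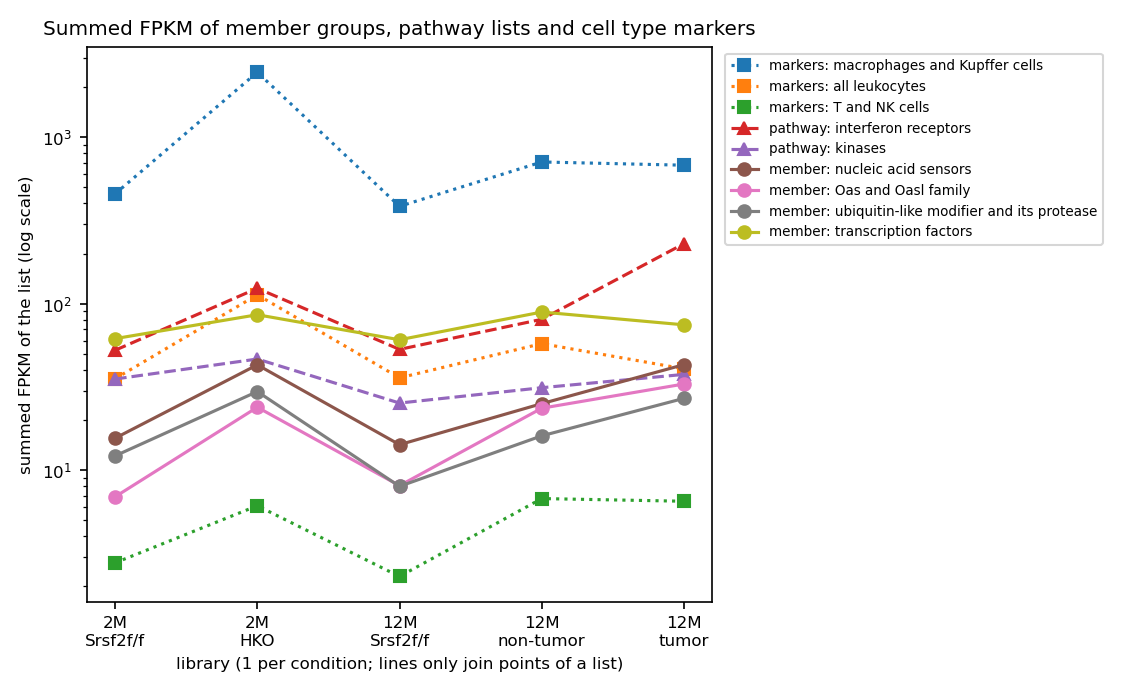
Summed FPKM, on a log scale, of 4 member groups, 2 pathway lists and 3 lists of cell type markers in the 5 libraries. Macrophage and Kupffer cell markers peak at 2460 FPKM in the 2M HKO liver, interferon receptors peak at 229 FPKM in the tumor, and the sensors reach 42.9 and 43.0 FPKM in those libraries.

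The rest of the pathway was mixed, counted from over 1 FPKM. The shares of all genes higher and lower were 25.8% and 6.3% at 2M, 10.6% and 2.39% for non-tumor liver, 20.2% and 8.72% for tumor above non-tumor liver, and 3.56% and 2.78% between the controls. Of the receptor-associated kinases, 0 of 3 passed the ratio in any comparison. Of 14 genes that lead to interferon production, 7 of 13 measured were higher and 1 lower at 2M, the one being Mavs, the mitochondrial adaptor on which Ddx58 and Ifih1 act, at 57.2 and 21.7 FPKM. None of 11 passed the ratio in the non-tumor section, and 2 of 11 were higher in the tumor above it. Among negative regulators, Socs3, an inhibitor of cytokine receptors, was listed at 4.35, 14.1, 1.99, 24.4 and 23.9 FPKM, and 3 of 7 measured were higher at 2M, 1 of 7 in the non-tumor section and 1 of 8 in the tumor above it. The last of these counts lay below the share of all genes. A longer list of 56 further interferon-stimulated genes gave 25 higher and 4 lower of 45 measured at 2M, 6 and 0 of 35 in the non-tumor section, 19 and 1 of 42 in the tumor above that section, and 0 and 2 of 32 between the controls. Ifitm3, an antiviral membrane protein with the highest level on that list, stood at 633, 609, 442, 520 and 539 FPKM and, like Bst2, was called in no comparison. The 4 that were lower at 2M included Gbp11 and Gbp10, at -3.30 and -2.47, while their relative Gbp2 stood at 1.80. Gbp11 was listed at 4.11, 0.327, 0.661, 0.543 and 1.41 FPKM, and Gbp10 at 1.80, 0.243, 1.02, 0.610 and 0.919. For both, the 2M control held the highest level. The 12M control stood at -2.47 against it for Gbp11 and -0.76 for Gbp10.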

How the data were processed

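The authors deposited FPKM for 5 liver libraries, for which the submitters' processing notes list Bowtie 0.12.2 and the build GRCm38. FPKM times gene length came in whole steps for 98.7% to 98.8% of values above 0, within 0.01, which gave fragments per library. Between 58.8% and 61% of counts from 2 to 21 were even, so mates may have been counted singly and intervals may be too narrow. EBSeq, named in the methods, was not repeated, since each condition had 1 library. Its fold rule was used with a pseudocount of 0.1 FPKM. Ratio intervals are exact binomial (Clopper-Pearson). Rescaling used 9099 genes over 1 FPKM in every library, and shifts were 0.25, 0.19, 0.16, 0.35 and -0.04 on the log2 scale for 2M HKO, non-tumor, tumor over non-tumor, tumor over control and age. Members and lists were chosen with earlier results of these data known. All members may be named. Full values were given for members with the highest levels of a role or the highest and lowest ratios. Up to 4 genes were named per other list, and more for macrophage markers, interferon receptors and further interferon-stimulated genes. Trim30d, Trim34a, Gbp10, Gbp11, Oas2 and the receptor positions were singled out after their values were seen. Alternatives covered the pseudocount, the minimum, scaling, TPM and the interval. Scripts were tested on simulated data. Promoters were from RefSeq GRCm38.p6. The protein comparison was not run. Software was Python 3.11.15 with scipy 1.17.1, pandas 2.3.3, numpy 2.4.6 and, for plots, matplotlib 3.10.9.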

Additional observations from a re-analysis of the deposited data

How the results depend on the processing

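No paired analysis was possible because each condition had 1 library. Counts of higher members kept within 1.5 times under either pseudocount, rescaling and the interval beyond 2-fold in all 5 comparisons. A minimum of 1 FPKM gave 14 higher at 2M, 9 in non-tumor liver and 23 in tumor over 12M Srsf2f/f, and no minimum gave 15, 11 and 23, since more members were tested. TPM, whose values are larger at the same minimum, gave 15, 8 and 20. Without a minimum, 1 member (Oas2) was lower in the tumor than in the non-tumor section. Between the controls, 1 was lower with the minimum of 1 FPKM, 2 with none and 1 with TPM. The median log2 ratio at 2M was 0.72 with a pseudocount of 1 FPKM, with a minimum of 5 FPKM and after rescaling. That of tumor against non-tumor was 0.42 with a minimum of 5 FPKM, where that of all genes was 0.23. That of tumor against 12M Srsf2f/f was 1.03 with a pseudocount of 1 FPKM and 1.08 after rescaling. Of 56 single ratios past the threshold from over 1 FPKM, 43 stayed past it after rescaling, 36 with a pseudocount of 1 FPKM and 56 with TPM or 0.01 FPKM, and 0 changed sign. With 1 mouse or section per condition, no ratio between mice can be separated from the difference between single animals. The tumor and non-tumor sections carry the same animal number, and their ratio cannot be separated from the difference between single sections. Depth limits the members under 1 FPKM most, such as Oas2 with 22 fragments in tumor and 102 in non-tumor liver.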
